A study of Mus musculus with 6 samples.

Results

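The genes described here are the peroxins, which build and import into peroxisomes, together with enzymes and membrane proteins of peroxisomal lipid metabolism, and they were taken by gene symbol from a table of read counts. All 32 listed symbols were found among the 57180 rows of the table, and catalase and the peroxiredoxins were left out of the list. The cells were mouse 10T1/2 cells, a mesenchymal fibroblast line, and 2 groups of them were compared, each as 3 libraries. The first group was given photodynamic therapy (PDT), in which light excites a dye that then yields reactive oxygen species. The dye was chlorin e6, carried in extracellular vesicles directed at midkine and abbreviated Ce6@D4-EV by the submitters, and irradiation followed. The other group was given PBS. Cells of both groups had been stimulated with TGF-β at 5 ng/mL as a model of cancer-associated fibroblasts, and no unstimulated cells were compared. Vesicles, dye and light came together, and no group with a part of this combination was analysed here. The design text calls the samples biological replicates without telling whether cultures or days were separate. The p-values therefore reflect the spread among these libraries, which may be partly technical.

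Total RNA freed of ribosomal RNA was sequenced, and the libraries held 88669946 to 99527847 counts in PDT and 83195529 to 86558216 counts in PBS. Levels are normalised read counts (CPM) on library sizes scaled by the TMM method. Where no read was counted, as many as 3 remain possible, a limit of 0.0301 to 0.0361 CPM on library totals without the TMM scaling. This limit depends on the library and covers counting error only. Fibroblast markers were present in both groups: 9 listed genes summed to 15403.5 to 16027.9 CPM in PDT and 24470.7 to 25770.3 CPM in PBS, and 8 of the 9 fell in PDT. The other, Thy1, was near 0 in both groups. Ptprc, Epcam, Kdr and Ttr, from longer lists of leukocyte, epithelial, endothelial and hepatocyte markers, had 0 counts in every library. Other markers of these lists had counts. The 5 leukocyte markers summed to 1.37 to 1.48 CPM in PDT and 0.831 to 0.902 CPM in PBS, all of it Cd68. The 4 endothelial markers summed to 0.269 to 0.417 CPM in PDT and 0.527 to 1.08 CPM in PBS. The 4 epithelial markers summed to 0.423 to 0.566 CPM in PDT and 0.601 to 1.31 CPM in PBS, with Cdh1 at 30 to 57 counts in PDT and 32 to 94 in PBS. The hepatocyte markers Alb and Apoa1 had at most 4 counts in a library. The part of these low signals in the results was not tested.

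Peroxisomes are small organelles with a single membrane that shorten very long and branched fatty acids, make the first intermediates of ether lipids and handle the hydrogen peroxide that their oxidases give off. Their matrix proteins are made in the cytosol and brought in by the receptors Pex5 and Pex7, which dock at the membrane, hand over their cargo and are pulled out again after ubiquitination. Membrane proteins are inserted by Pex3, Pex16 and Pex19, and proteins of the Pex11 family lengthen the organelle before it divides. In fibroblasts peroxisomes are few compared with liver, and cultured skin fibroblasts are the classic cells in which inherited defects of these genes are diagnosed.

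Promoter sequences are shown for 4 genes that the results turn on: Far1 and Agps, the 2 members that fell, and Pex11a and Pex10, the peroxins with the highest fold changes. Each is the 250 bases before the gene's start on the gene's own strand, from RefSeq on GRCm38.p6, and capitals mark a CCAAT box (CCAAT) or a GC box (GGGCGG) on either strand. Far1 lies on the plus strand at chr7:113513584-113513833, Agps on the plus strand at chr2:75831927-75832176, Pex11a on the minus strand at chr7:79743132-79743381 and Pex10 on the plus strand at chr4:155066780-155067029.
Far1: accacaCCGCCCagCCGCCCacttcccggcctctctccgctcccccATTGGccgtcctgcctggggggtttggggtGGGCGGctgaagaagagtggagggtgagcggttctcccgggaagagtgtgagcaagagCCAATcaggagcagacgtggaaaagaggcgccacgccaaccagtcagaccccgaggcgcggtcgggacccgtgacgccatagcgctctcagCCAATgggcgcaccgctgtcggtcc
Agps: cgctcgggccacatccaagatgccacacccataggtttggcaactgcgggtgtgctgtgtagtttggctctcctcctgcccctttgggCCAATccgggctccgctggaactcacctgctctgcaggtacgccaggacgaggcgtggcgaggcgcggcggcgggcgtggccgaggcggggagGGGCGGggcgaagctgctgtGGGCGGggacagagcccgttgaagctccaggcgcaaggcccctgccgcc
Pex11a: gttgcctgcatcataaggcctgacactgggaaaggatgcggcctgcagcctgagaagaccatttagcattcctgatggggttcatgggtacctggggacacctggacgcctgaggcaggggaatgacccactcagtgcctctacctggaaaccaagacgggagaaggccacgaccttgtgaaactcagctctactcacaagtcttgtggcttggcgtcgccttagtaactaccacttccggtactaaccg
Pex10: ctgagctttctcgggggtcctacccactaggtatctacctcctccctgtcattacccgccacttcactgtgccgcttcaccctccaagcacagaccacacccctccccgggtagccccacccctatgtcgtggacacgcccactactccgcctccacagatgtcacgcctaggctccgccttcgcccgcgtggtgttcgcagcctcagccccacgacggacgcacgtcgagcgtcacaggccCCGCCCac
Counted back from the start, and by the first base of each match, Far1 held CCAAT boxes at -204, -116 and -25 and GC boxes at -244, -236 and -174. Agps held a CCAAT box at -162 and GC boxes at -69 and -49, Pex10 held a GC box at -8, and no listed motif was found in the Pex11a window. RefSeq promoters were at hand for 26 of the 32 members. Of these 26, 46.2% held a CCAAT box, against 41.0% of the promoters of 11017 tested genes, and 76.9% held a GC box, against 61.2%. The half-site of PPAR receptors, AGGTCA, was found in 1 of the 26 promoters, that of Scp2, and in 12.8% of the promoters of tested genes. The core of the antioxidant response element, TGACNNNGC, was found in 2 (7.69%), Ehhadh and Pex7, against 13.7%. The E-box CACGTG was in the same number, Gnpat and Lonp2, against 9.5%. Motifs were searched on both strands, the letters of the listed motifs do not contain one another, and a match describes letters and not a site in use.

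More members were higher than lower in PDT. Of the 32, all passed the filter on low counts, 12 rose, 2 fell and 18 were not called by edgeR's quasi-likelihood test with Benjamini-Hochberg adjustment over 17635 genes. This is 37.5% higher, against 18.7% of all tested genes, and 6.25% lower, against 17.5%. Because 30 of the members have an average log2 CPM of at least 2, where calls are more frequent, the nearer background is the 10973 genes at that level, of which 27.0% were called higher and 23.1% lower. All 14 called members were among these 30. Without PDT replicate 1, 7 members were called higher, and with a stricter low-count filter 4 were called lower.

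The shifts were small. The median log2 fold change, PDT over PBS, was 0.17 over the 32 members, against 0.01 over all tested genes and 0.03 over those at a log2 CPM of at least 2. Estimates were positive for 27 members and negative for 5, and ran from -0.87 for Far1 to 0.47 for Pex11a. The 3 PDT libraries all lay above the 3 PBS libraries for 16 members (50.0%, against 25.6% of all tested genes and 33.8% of those at a log2 CPM of at least 2). They all lay below them for 4 (12.5%, against 23.4% and 27.7%). Summed over the members, transcript levels overlapped, at 1268.8 to 1305.0 CPM in PDT and 1269.4 to 1294.1 CPM in PBS. Less RNA per cell and fewer cells with a transcript cannot be told apart in these bulk samples.

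**Figure D1:**
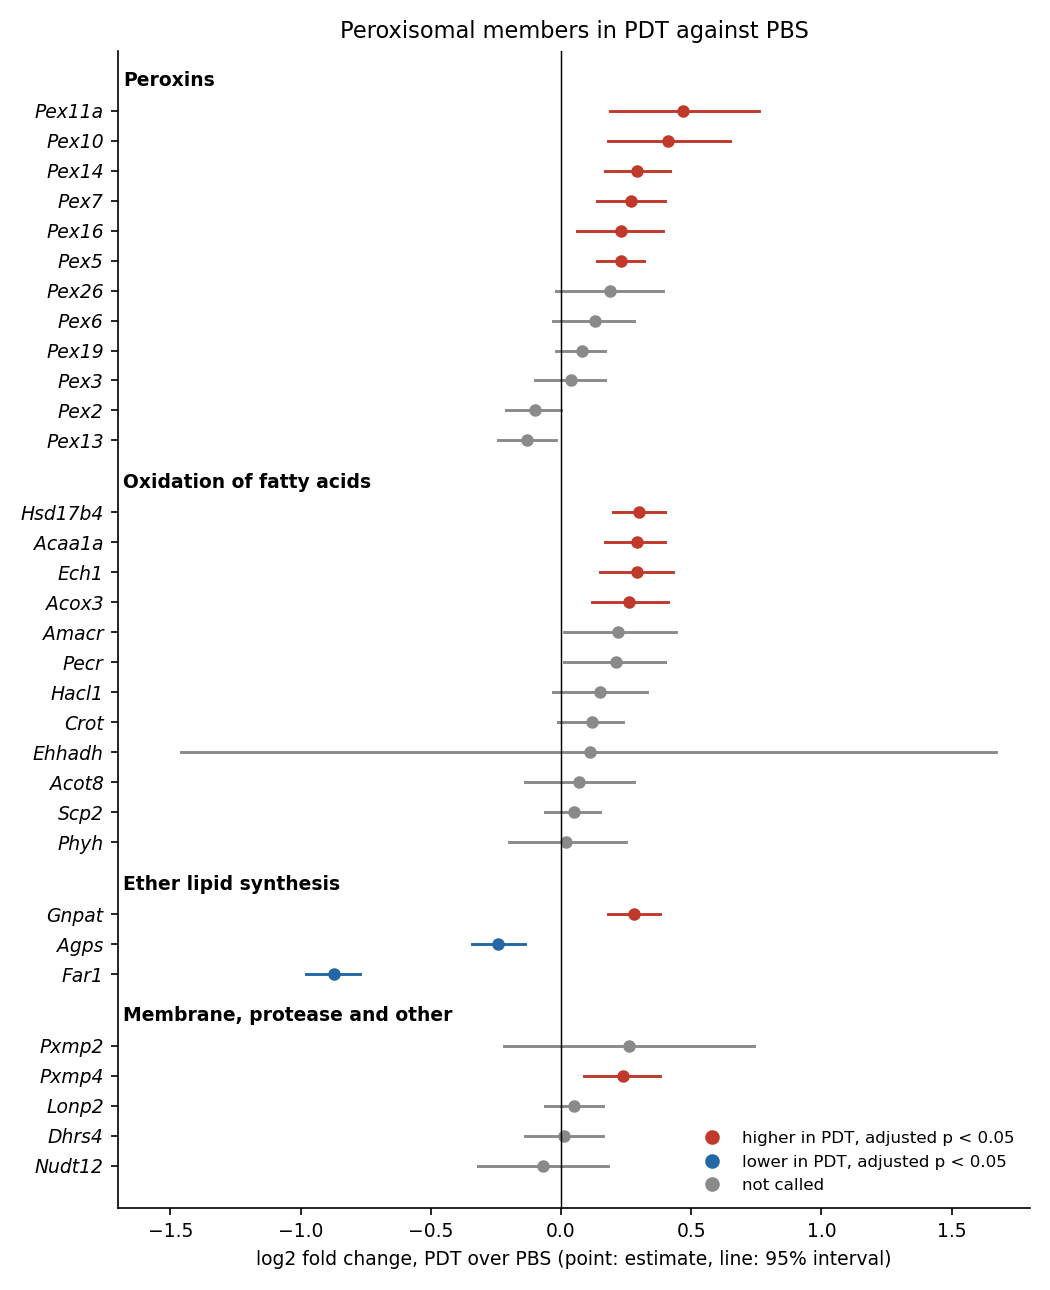
Log2 fold change of each of the 32 members, PDT over PBS, grouped by role, with the estimate as a point, its 95% interval as a line and colour for the call at an adjusted p of 0.05. Far1 stands apart at -0.87, the other called members lie between -0.24 and 0.47, and every oxidation enzyme has a positive estimate (with length and GC offsets, Phyh is at -0.03 and Acot8 at -0.11).

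The 3 genes of ether lipid synthesis moved in different directions. The pathway starts inside the peroxisome with Gnpat, which attaches a fatty acid to dihydroxyacetone phosphate. Agps then exchanges that fatty acid for a fatty alcohol and so makes the ether bond, and Far1, on the outer face of the membrane, supplies the alcohol and is regarded as the step that sets the rate. Far1 and Agps fell and Gnpat rose, and of these calls that of Agps ended with offsets for transcript length and GC content.

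Far1 had 93.8, 95.6 and 102.0 CPM in PDT, against 176.9, 170.6 and 186.3 CPM in PBS. Each PDT library was far below each PBS library. The level averaged 97.1 ± 4.29 CPM in PDT and 177.9 ± 7.92 CPM in PBS (SD, n = 3 each), 1.83-fold lower in PDT. Its log2 fold change of -0.87 ± 0.05 (SE, 95% interval -0.98 to -0.77) had an adjusted p of 1.16e-06 in edgeR, and the call held in 16 of 16 alternative fits. With offsets for transcript length and GC content, a refit in which each library's trend on these properties is taken out, the log2 fold change was -0.50 (adjusted p = 1.49e-06). Far1 shares 80 exon bases with Far1os on the opposite strand, which had 7 to 30 counts per library.

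Agps had 141.5, 137.3 and 152.0 CPM in PDT, against 166.3, 170.3 and 171.0 CPM in PBS. The groups did not overlap, and the averages were 143.6 ± 7.59 CPM in PDT and 169.2 ± 2.52 CPM in PBS. The log2 fold change was -0.24 ± 0.04 (adjusted p = 0.00236 in edgeR). This call ended with the length and GC offsets, where the estimate was 0.04 and the adjusted p 0.42.

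Gnpat had 89.4, 88.9 and 82.8 CPM in PDT, against 72.4, 68.9 and 73.6 CPM in PBS, again without overlap. It averaged 87.0 ± 3.70 CPM in PDT and 71.6 ± 2.46 CPM in PBS, a log2 fold change of 0.28 ± 0.05 (adjusted p = 0.0011 in edgeR), and it kept its call in 16 of 16 alternatives. Gnpat shares 88 exon bases with 2810004N23Rik on the opposite strand, which was also called higher (0.29, adjusted p = 0.00066 in edgeR), and since the use of strand in counting is not given, reads over the shared bases are uncertain.

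Within a library, the balance of these transcripts can be read without any scaling between libraries. The log2 ratio of Far1 to Gnpat counts was 0.07, 0.11 and 0.30 in PDT, against 1.29, 1.31 and 1.34 in PBS. The ratio was lower in each PDT library than in each PBS library, with a mean difference of -1.15 on the log2 scale, and it is of counts not divided by length. The ratio of Agps to Gnpat was 0.66, 0.63 and 0.88 in PDT and 1.2, 1.31 and 1.22 in PBS. That of Far1 to Agps was -0.59, -0.52 and -0.58 in PDT and 0.09, 0.00 and 0.12 in PBS. These ratios describe the same counts as the fold changes and were not tested. They keep any trend of a library on length and GC content, and GC is 36.9% in Far1, 41.5% in Agps and 50.1% in Gnpat. With the offsets, the log2 fold changes were -0.50 for Far1, 0.04 for Agps and 0.21 for Gnpat. The 3 genes together summed to 321.8 to 336.7 CPM in PDT and 409.8 to 430.9 CPM in PBS.

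**Figure D2:**
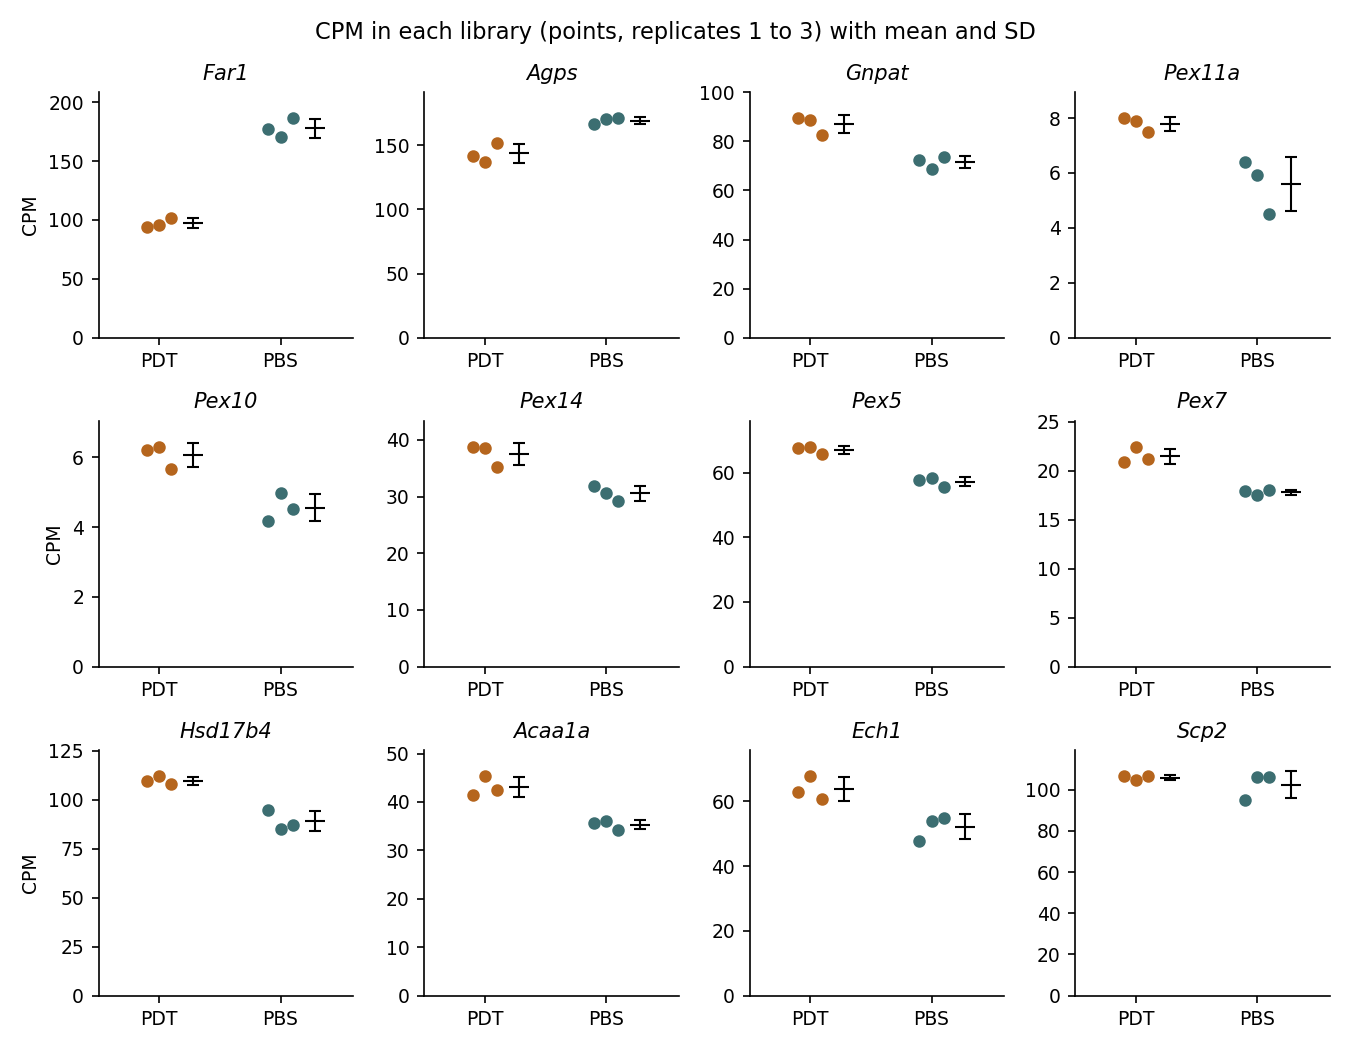
Level in CPM of 12 members in each library, with PDT left of PBS, points for replicates 1 to 3 and a bar for the mean and SD. Far1 and Agps are lower in all 3 PDT libraries, Scp2 overlaps between the groups, and the other genes shown are higher in all 3 PDT libraries.

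Of the 12 peroxins, 6 (50.0%) rose, 0 fell and 6 were not called, with a median log2 fold change of 0.21 (0.13 with offsets). Among genes at a log2 CPM of at least 2, 27.0% were called higher and 23.1% lower. With the offsets 4 of the 12 rose, against 2509 of 10546 genes at that level. The 6 that rose without offsets were the import receptors Pex5 and Pex7, the docking protein Pex14, the ubiquitin ligase subunit Pex10, the membrane insertion factor Pex16 and the division factor Pex11a. Their changes were modest, from 1.17-fold for Pex5 to 1.39-fold for Pex11a. No peroxin was called lower by edgeR, DESeq2 or limma-voom (0 each), 1 was lower at an unadjusted p under 0.05 in edgeR, and Pex13 and Pex2 were called lower with a stricter low-count filter. Only 3 peroxins were called higher without PDT replicate 1, and also 3 without PDT replicate 2.

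Pex5 recognises the carboxy-terminal targeting signal that most matrix enzymes carry. It had 67.5, 67.8 and 65.6 CPM in PDT, against 57.8, 58.2 and 55.5 CPM in PBS, and averaged 67.0 ± 1.22 CPM in PDT and 57.2 ± 1.46 CPM in PBS. The libraries of a group were close to each other and the groups did not overlap. The log2 fold change was 0.23 ± 0.04 (adjusted p = 0.00157 in edgeR). Pex7, the receptor for the amino-terminal signal carried by thiolase, Phyh and Agps, had 20.9, 22.4 and 21.2 CPM in PDT, against 17.9, 17.5 and 18.0 CPM in PBS. It rose by 0.27 ± 0.06 (adjusted p = 0.00466 in edgeR), and by 0.49 with the offsets (adjusted p = 0.000208). Both receptors kept their calls in 16 of 16 alternatives.

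The docking proteins Pex14 and Pex13, which meet the loaded receptors at the membrane, gave 1 call. Pex14 had 38.7, 38.6 and 35.3 CPM in PDT, against 31.8, 30.7 and 29.2 CPM in PBS, and rose by 0.29 ± 0.06 (adjusted p = 0.00288 in edgeR). It shares 1776 exon bases with Gm17029 on the opposite strand, which had 51 to 92 counts per library. Reads over the shared bases are uncertain, since the use of strand in counting is not given. For Pex13 the values were 27.4, 27.7 and 26.4 CPM in PDT and 28.8, 29.9 and 30.4 CPM in PBS. All 3 PDT libraries lay below PBS, but the log2 fold change of -0.13 ± 0.05 did not pass the test (adjusted p = 0.0715 in edgeR, with a range of 0.0298 to 0.225 over the alternatives), and it was 0.14 with the offsets. The difference between Pex14 and Pex13 was not tested.

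Pex2 and Pex10 are RING subunits of the ubiquitin ligase that marks Pex5 for recycling. Pex10 had 6.22, 6.29 and 5.68 CPM in PDT, against 4.18, 4.98 and 4.52 CPM in PBS. It averaged 6.07 ± 0.331 CPM in PDT and 4.56 ± 0.397 CPM in PBS, and the groups did not overlap. The log2 fold change was 0.41 ± 0.10 (adjusted p = 0.0124 in edgeR). It was 0.27 with the offsets, where the call ended (adjusted p = 0.065), and it also ended without PDT replicate 1 or PDT replicate 2. Pex2 was at -0.10 ± 0.05 (adjusted p = 0.125 in edgeR), with 40.7 to 41.4 CPM in PDT and 41.9 to 45.4 CPM in PBS.

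Pex11a, the Pex11 form that is induced along with peroxisome proliferation in rodent liver, had 7.99, 7.89 and 7.49 CPM in PDT, against 6.39, 5.93 and 4.51 CPM in PBS. The PDT libraries were tightly grouped and all above PBS, where replicate 3 was lowest. The means were 7.79 ± 0.264 CPM in PDT and 5.61 ± 0.979 CPM in PBS, and the log2 fold change of 0.47 ± 0.13 had an adjusted p of 0.0157 in edgeR. The call ended without PDT replicate 1 (0.0554) or PDT replicate 2 (0.0534). Pex16, which helps to bring membrane proteins in, had 16.6, 18.2 and 16.7 CPM in PDT, against 15.6, 14.7 and 13.7 CPM in PBS. At 17.2 ± 0.91 CPM in PDT and 14.7 ± 0.997 CPM in PBS, its log2 fold change of 0.23 ± 0.07 passed the test by little (adjusted p = 0.0343 in edgeR). Its call held in 9 of 16 alternatives and ended with the offsets (0.08, adjusted p = 0.411). The call also ended when any of PBS replicates 2 and 3 and PDT replicates 1 and 2 was left out. Pex16 shares 127 exon bases with Large2 on the opposite strand, which had 10 to 30 counts per library.

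The partners of Pex16 were not called. Pex19, the cytosolic chaperone of membrane proteins, had 75.2, 72.3 and 69.9 CPM in PDT and 70.7, 68.6 and 66.8 CPM in PBS, and these ranges overlapped. Its log2 fold change was 0.08 ± 0.04, with a 95% interval of -0.02 to 0.17 (adjusted p = 0.199 in edgeR). Pex3, its docking partner at the membrane, was at 0.04 ± 0.06. Pex6, an ATPase that pulls Pex5 out of the membrane, was at 0.13 ± 0.07 (adjusted p = 0.183 in edgeR) and was called without PDT replicate 3 (0.017). Its membrane anchor Pex26 was at 0.19 ± 0.09 (adjusted p = 0.15 in edgeR), with all 3 PDT libraries above PBS.

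Among the 12 enzymes of fatty acid oxidation, 4 (33.3%) rose, close to the 27.0% called higher among genes at a log2 CPM of at least 2, while 0 fell and 8 were not called, and all 12 estimates were positive, from 0.02 to 0.30, although Phyh and Acot8 were at -0.03 and -0.11 with the offsets. The median was 0.18 (0.11 with offsets). The count of lower enzymes was 0 also at an unadjusted p under 0.05 in edgeR, by DESeq2 and by limma-voom. With library size alone as the scaling, 7 were called higher. Their summed level was 443.3 to 458.9 CPM in PDT and 383.0 to 396.1 CPM in PBS, without overlap. The 4 were Acox3, Hsd17b4, Acaa1a and Ech1, of which Ech1 lost its call with the offsets.

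Hsd17b4, the D-bifunctional protein needed for very long chain and branched substrates, had 109.5, 112.0 and 108.0 CPM in PDT, against 94.8, 85.3 and 87.3 CPM in PBS. No PBS library reached the lowest PDT library. The means were 109.8 ± 2.02 CPM in PDT and 89.1 ± 4.99 CPM in PBS, and the log2 fold change was 0.30 ± 0.05 (adjusted p = 0.000796 in edgeR), with the call in 16 of 16 alternatives. The other bifunctional enzyme, Ehhadh, which is abundant in liver, was barely detected, with 8, 14 and 28 counts in PDT and 5, 27 and 7 counts in PBS. A difference in Ehhadh was not detectable at this depth (0.11 ± 0.70).

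Acaa1a, a 3-ketoacyl-CoA thiolase, had 41.5, 45.3 and 42.4 CPM in PDT, against 35.6, 36.0 and 34.2 CPM in PBS, and rose by 0.29 ± 0.05 (adjusted p = 0.00178 in edgeR). It has a near-identical copy, Acaa1b, at 2.14 ± 0.307 CPM in PDT and 1.45 ± 0.448 CPM in PBS, and shares 290 exon bases with Myd88 on the opposite strand, so the split of reads between them is uncertain. Myd88 itself was not called (-0.07, adjusted p = 0.263 in edgeR). Ech1, a dienoyl-CoA isomerase also found in mitochondria, had 62.9, 67.7 and 60.7 CPM in PDT, against 47.8, 54.0 and 54.7 CPM in PBS. It rose by 0.29 ± 0.06 (adjusted p = 0.00488 in edgeR), a call that ended with the offsets (0.12, adjusted p = 0.102). Acox3, an acyl-CoA oxidase of branched chains, rose by 0.26 ± 0.07 (adjusted p = 0.0116 in edgeR), at 26.3, 23.2 and 26.0 CPM in PDT and 20.4, 20.5 and 22.0 CPM in PBS, with no overlap. Its call ended without PBS replicate 1 or PDT replicate 1. Acox3 shares 700 exon bases with 4931431C16Rik on the opposite strand, which had 0 counts in every library.

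Scp2, whose locus encodes both a thiolase and the sterol carrier protein, was the most abundant member not called. It had 106.5, 104.8 and 106.5 CPM in PDT and 95.1, 106.1 and 106.2 CPM in PBS, so the groups overlapped, with PBS replicate 1 below the rest. Its log2 fold change was 0.05 ± 0.05 with a 95% interval of -0.06 to 0.15 (adjusted p = 0.483 in edgeR), and counts per gene do not separate its products. In the α-oxidation of phytanic acid, Phyh, the hydroxylase, was at 0.02 ± 0.10 and Hacl1, the lyase that follows, at 0.15 ± 0.08. The racemase Amacr (0.22 ± 0.10, adjusted p = 0.1 in edgeR), the enoyl-CoA reductase Pecr (0.21 ± 0.09, adjusted p = 0.0926) and the carnitine transferase Crot (0.12 ± 0.05, adjusted p = 0.126) had all 3 PDT libraries above PBS without passing the test. Amacr and Pecr were called without PDT replicate 3, and Crot was called with the offsets (0.17, adjusted p = 0.0188). The thioesterase Acot8 was at 0.07 ± 0.09, with overlapping groups.

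The remaining 5 members gave 1 call. Pxmp4, a peroxisomal membrane protein, had 32.6, 30.4 and 29.3 CPM in PDT, against 24.2, 26.7 and 27.4 CPM in PBS. It averaged 30.7 ± 1.68 CPM in PDT and 26.1 ± 1.71 CPM in PBS and rose by 0.24 ± 0.06 (adjusted p = 0.017 in edgeR), a call that ended with the offsets (0.16, adjusted p = 0.063) and without PBS replicate 1 or PDT replicate 1. Lonp2, the Lon protease of the matrix, had 77.5, 83.1 and 73.7 CPM in PDT and 73.3, 78.3 and 74.7 CPM in PBS. These values overlapped, and the log2 fold change was 0.05 ± 0.05 with a 95% interval of -0.06 to 0.16 (adjusted p = 0.486 in edgeR). The carbonyl reductase Dhrs4 was at 0.01 ± 0.07, the NADH-cleaving Nudt12 at -0.07 ± 0.11, and the channel protein Pxmp2, at 0.833 ± 0.0876 CPM in PDT and 0.696 ± 0.0869 CPM in PBS, at 0.26 ± 0.21.

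Per kilobase of transcript, the most abundant members in PDT were Ech1 at 50.4 CPM per kb in PDT and 41.2 in PBS, Hsd17b4 at 40.9 in PDT and 33.2 in PBS, and Scp2 at 40.1 in PDT and 38.8 in PBS. On the same scale Far1 was at 19.6 CPM per kb in PDT and 35.9 in PBS, and Gnpat at 29.2 in PDT and 24.0 in PBS. Far1 thus lay below Gnpat in PDT, while in PBS it lay above Gnpat and Hsd17b4. Ehhadh was lowest, at 0.0567 CPM per kb in PDT and 0.053 in PBS. The length used was that of the longest annotated transcript of each gene, which need not be the one in use.

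Transcript length and GC content, taken from the longest annotated transcript of each gene, were set beside the calls. The 12 members that rose had a median length of 2462 nt and a median GC content of 53.5%, the 2 that fell had 6160 nt and 39.2%, and the 18 not called had 2642 nt and 47.6%. By median, the members that rose were slightly shorter than those not called and higher in GC content. The 2 that fell were longer and lower in GC content than both. With the offsets, 9 of the 32 members were called higher, against 16.9% of the 16356 genes with a length, and 1 lower, against 16.4%. Of the 10546 such genes at a log2 CPM of at least 2, the nearer background, 2509 were called higher and 2210 lower. The median of the members was then 0.11, against -0.01 over the 16356 genes and 0.01 over the 10546. Far1, Gnpat, Hsd17b4, Pex5, Pex7, Pex11a, Pex14, Acaa1a and Acox3 kept their calls, Agps, Pex10, Pex16, Ech1 and Pxmp4 lost them, and Crot, not called without them, was called. The part of length and GC in the change was not tested, since the offsets also take out any response that follows these properties.

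**Figure D3:**
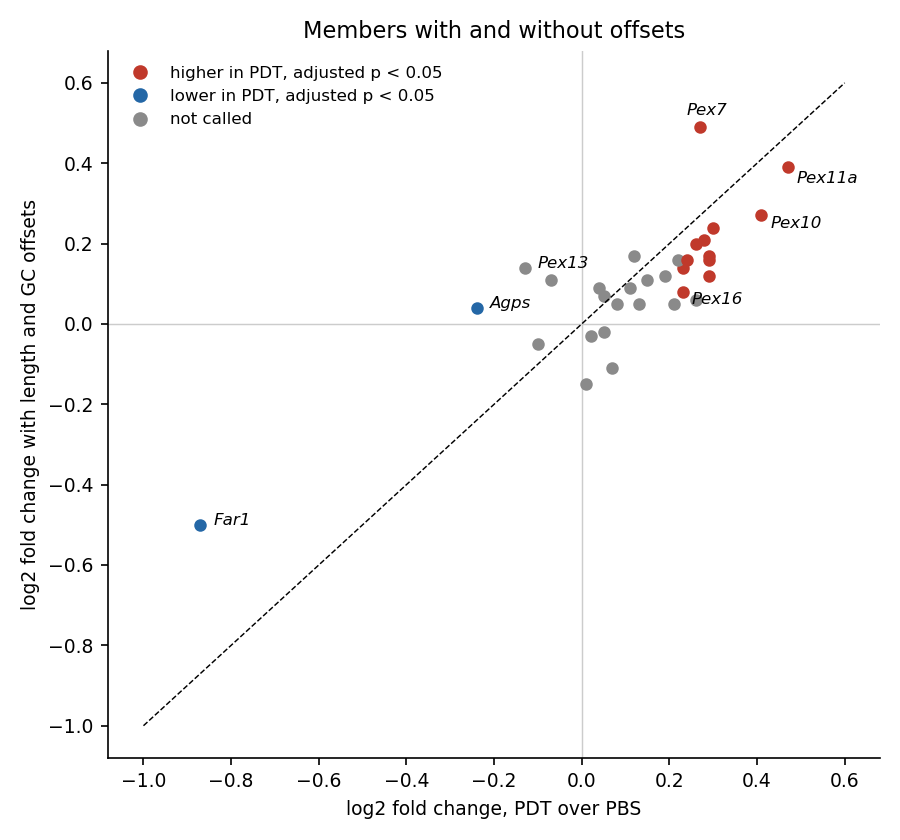
Log2 fold change of each member, PDT over PBS, with length and GC offsets (vertical axis) against the fit without them (horizontal axis), coloured by the call without offsets, with equality dashed. Far1 moves from -0.87 to -0.50, Agps from -0.24 to 0.04 and Pex7 from 0.27 to 0.49, and most of the genes called higher lie below the dashed line.

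Other lists of peroxisomal and related genes, which do not hold the members, were set beside them. Calls over all tested genes were 18.7% higher and 17.5% lower, and 27.0% and 23.1% at a log2 CPM of at least 2. Of the 5 other peroxins, 0 were called by edgeR, DESeq2 or limma-voom and 1 was higher at an unadjusted p under 0.05 in edgeR (median 0.19). A list of 31 other peroxisomal oxidation enzymes also holds the ether lipid gene Far2, and of its 20 tested genes 8 rose and 1, Far2, fell, with a median of 0.19. Mlycd, which removes malonyl-CoA, rose by 0.40 ± 0.07, the CoA-cleaving Nudt19 by 0.32 ± 0.06 and the carnitine acetyltransferase Crat by 0.29 ± 0.06 (adjusted p of 0.0018, 0.00325 and 0.00381 in edgeR). Far2, a fatty acyl-CoA reductase like Far1 and no oxidation enzyme, fell by 0.90 ± 0.26 (adjusted p = 0.0217 in edgeR), at 2.10 ± 0.771 CPM in PDT and 3.93 ± 0.89 CPM in PBS with overlapping groups. That call ended when any of PBS replicates 1 and 3 and PDT replicates 1 and 2 was left out. At 0 in every library were Acot3, Acot5, Dao, Hao2, Uox and Gstk1.

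Of 9 listed membrane transporters and pores, not all of them peroxisomal, 3 rose and 3 fell (33.3% each). Abcd2, an ABC transporter of very long chain fatty acyl-CoAs, rose by 0.81 ± 0.07 (adjusted p = 1.98e-05 in edgeR; 1.03 with offsets), at 14.8 ± 0.462 CPM in PDT and 8.46 ± 0.259 CPM in PBS. Its relative Abcd3 fell by 0.15 ± 0.05 (adjusted p = 0.0387 in edgeR), and the cofactor carrier Slc25a17 fell by 0.13 ± 0.04 (adjusted p = 0.0177). The call of Abcd3 held in 9 of 16 alternatives and ended with the offsets (-0.09, adjusted p = 0.136). With library size alone as the scaling, 0 of the 9 were called lower. There were also 0 without PBS replicate 2 and 1 each without PBS replicate 3 or PDT replicate 1. Mpv17l2 and Mpv17, better known as mitochondrial proteins, rose by 0.32 ± 0.06 and 0.25 ± 0.06 (adjusted p of 0.00321 and 0.0129 in edgeR). Mpv17l2 lost its call with the offsets (0.12, adjusted p = 0.168). Mpv17 lost its call without PBS replicate 1, PDT replicate 1 or PDT replicate 2.

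Among 12 tested genes of division, tethering and turnover, 3 (25.0%) rose and 2 (16.7%) fell. Acbd5, which ties peroxisomes to the endoplasmic reticulum, fell by 0.58 ± 0.07 (adjusted p = 0.000183 in edgeR; -0.35 with offsets), at 43.6 ± 4.71 CPM in PDT and 65.0 ± 0.96 CPM in PBS. Dnm1l, the GTPase that cuts peroxisomes and mitochondria apart, fell by 0.38 ± 0.05 (adjusted p = 0.00055 in edgeR; -0.20 with offsets), at 126.1 ± 9.07 CPM in PDT and 163.7 ± 5.78 CPM in PBS. Acbd4, a related tether, rose by 0.35 ± 0.06, and the ubiquitin ligase Trim37 by 0.17 ± 0.04 (adjusted p of 0.00151 and 0.00923 in edgeR). Without PDT replicate 1, 1 gene of this list was called higher.

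The later steps of ether lipid and plasmalogen synthesis gave 3 higher and 1 lower call among 7 tested genes (42.9% and 14.3%), with a median of 0.15. Agpat3, an acyltransferase, and Plpp3, a lipid phosphatase, rose by 0.38 ± 0.04 and 0.33 ± 0.04 (adjusted p of 9.74e-05 and 0.000128 in edgeR). Peds1, the desaturase that makes the vinyl ether bond of plasmalogens, rose by 0.15 ± 0.04 (adjusted p = 0.0217 in edgeR), at 80.3 ± 3.74 CPM in PDT and 72.4 ± 0.76 CPM in PBS. Its call held in 10 of 14 alternatives, ending when any of PBS replicates 2 and 3 and PDT replicates 1 and 2 was left out, and it has no value with the offsets. Chpt1, a cholinephosphotransferase, fell by 0.21 ± 0.06 (adjusted p = 0.0214 in edgeR), but was at 0.11 with the offsets (adjusted p = 0.0406). The Chpt1 call also ended without PBS replicate 3, PDT replicate 1 or PDT replicate 2.

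**Figure D4:**
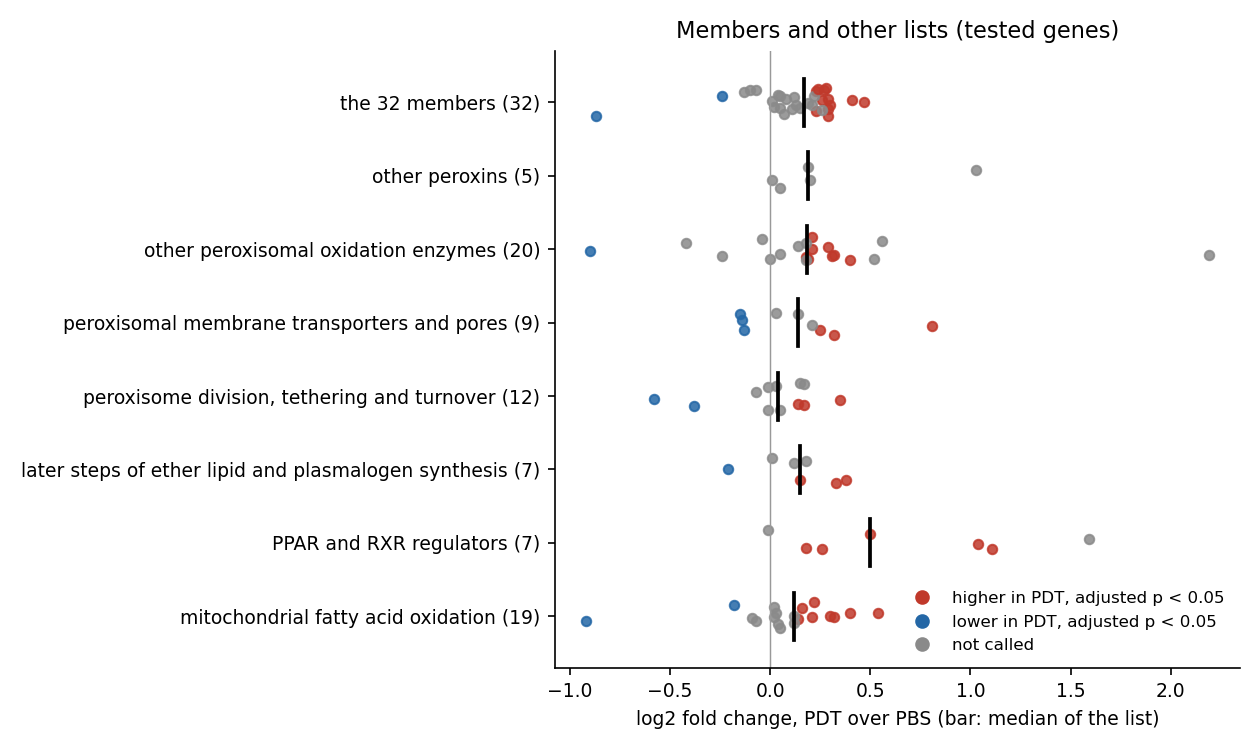
Log2 fold change, PDT over PBS, of the members and of each tested gene in 7 other lists (points, coloured by call), with a bar at the median of each list and the number of tested genes in brackets. The median is 0.17 for the members, 0.50 for PPAR and RXR regulators and 0.12 for mitochondrial fatty acid oxidation.

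PPAR receptors, which pair with RXR, drive peroxisomal lipid genes in rodent liver and fat, and PGC-1 proteins are their coactivators. In this list 5 of 7 tested genes (71.4%) rose, 4 of them also with the offsets, and 0 fell, with a median of 0.50. Over all tested genes 18.7% were called higher, and 27.0% at a log2 CPM of at least 2. In the list 0 were lower at an unadjusted p under 0.05 in edgeR, by DESeq2 or by limma-voom. Pparg had 49.5, 49.3 and 53.5 CPM in PDT, against 35.8, 37.3 and 35.0 CPM in PBS, and rose by 0.50 ± 0.05 (adjusted p = 7e-05 in edgeR). The groups were well apart. Ppargc1a was low but higher in each PDT library, at 2.40 ± 0.0754 CPM in PDT and 1.16 ± 0.147 CPM in PBS (1.04 ± 0.16, adjusted p = 0.000704 in edgeR), and Ppargc1b rose by 1.11 ± 0.22 (adjusted p = 0.00337). Ppard rose by 0.26 ± 0.05 (adjusted p = 0.00365 in edgeR), at 53.7 ± 2.04 CPM in PDT and 45.0 ± 2.26 CPM in PBS. Rxrb rose by 0.18 ± 0.05 (adjusted p = 0.0233 in edgeR), a call that held in 9 of 16 alternatives and ended with the offsets (0.09, adjusted p = 0.181). Rxra was at -0.01 ± 0.05 (adjusted p = 0.856 in edgeR), and Ppara, the liver form, had 0 to 4 counts in either group and was not tested.

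Beside these, the adipocyte markers summed to 16.6 to 17.0 CPM in PDT and 11.6 to 14.4 CPM in PBS. Nearly all of this was Fabp4, which rose by 0.39 ± 0.08 (adjusted p = 0.00517 in edgeR), while Cidec and Lep were at 0 and Adipoq had 0 to 4 counts. The part of these genes in the result was not tested. Fatty acid oxidation in mitochondria had 8 of 19 genes higher (42.1%) and 2 lower (10.5%), with a median of 0.12 (0.01 with offsets). Hadh rose by 0.54 ± 0.04, Etfb by 0.40 ± 0.05, Acadl by 0.30 ± 0.04 and Acaa2 by 0.32 ± 0.06 (adjusted p of 1.04e-05, 0.000153, 0.000421 and 0.00202 in edgeR). The 2 that fell were Acadm, by 0.18 ± 0.04 (adjusted p = 0.00817 in edgeR; -0.25 with offsets), with its call in 16 of 16 alternatives, and Cpt1b, by 0.92 ± 0.26 (adjusted p = 0.0183), at 1.64 ± 0.608 CPM in PDT and 3.11 ± 0.639 CPM in PBS. The Cpt1b call ended when any of PBS replicates 1 and 3 and PDT replicates 1 and 2 was left out. Of this list 5 were called higher with the offsets, and also 5 without PBS replicate 1, PDT replicate 1 or PDT replicate 2.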

How the data were processed

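RNA was sequenced from 6 samples, 3 PDT and 3 PBS, grouped by the treatment in the labels. The deposited table holds raw read counts per gene symbol. The tools cutadapt 4.6 and STAR 2.7.11b and the build GRCm39 are named, per the submitters' processing notes. The counter, the annotation and the strand setting were not given in the sources used here, so overlapping genes and near-identical copies are uncertain. Of 57180 rows, 0 named no gene. Genes passing filterByExpr (17635) were tested with edgeR 4.0.16 (TMM scaling, quasi-likelihood test on group, Benjamini-Hochberg threshold 0.05) in R 4.3.3, and the common biological coefficient of variation was 10%. The SE is the log2 fold change over the square root of F. Length and GC content came from GENCODE M21, an earlier build used for properties only (92.7% of genes), smoothed with mgcv 1.9.3. They are those of the longest transcript of each symbol, protein-coding where there was one. Whether the cells used that transcript was not tested. Promoters came from RefSeq. The 16 alternatives included DESeq2 1.42.0 and limma 3.58.1 (voom). The procedure was tested on simulated counts. Members and lists were chosen with earlier results of these data known. Values per sample are given for called members with an absolute log2 fold change of at least 0.3, the 3 called members closest to 0 and the 3 most abundant not called, and other genes shown this way were chosen after their values were seen. From other lists, up to 4 called genes of lowest adjusted p are named with fixed regulators, and genes beyond these were named after their values were seen. Some genes that the rule selects are left out of the text. Each pair of libraries differed by more than sampling noise (chi-square over its degrees of freedom, 11.2 to 26.1).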

Additional observations from a re-analysis of the deposited data

How the results depend on the processing

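Over 32 members and 16 alternatives with a value, 476 of 510 fits kept the side of the threshold and, for called members, the direction. In 25 of these the estimate of a member not called took the other sign. In the rest, 21 lost the call, 11 gained a call and 2 reversed. The 2 are Agps, at 0.037 with length and GC offsets, alone or with the replicate block. With the offsets, alone or with the block, 1 member was lower (1 of the ether lipid genes), 0 of the membrane and other members and 1 of the other peroxins were higher, 5 mitochondrial oxidation genes were higher, and 0 later ether lipid genes were lower. With the offsets alone 5 later ether lipid genes were higher. A stricter low-count filter gave 4 lower members, 2 of them peroxins. Library size alone gave 7 higher oxidation members, 1 other peroxin, 5 division genes and 5 later ether lipid genes higher, 0 transporters and 0 later ether lipid genes lower, and 4290 higher and 2517 lower calls over all genes in place of 3294 and 3078. Without a low-count filter, 0 genes of the other oxidation list (Far2 lost its call), 0 later ether lipid genes and 1 mitochondrial gene were lower. The cause of these shifts was not tested.

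The median of the members, 0.171, was 0.220 with library size alone, 0.151 with the stricter filter, 0.109 with offsets, 0.198 by limma-voom, 0.196 with the replicate block and 0.116 with the block and offsets. Leaving out each library in turn gave 7 to 15 higher and 2 lower members and a median of 0.142 to 0.209. Higher calls then ran from 3 to 7 for peroxins, 3 to 6 for oxidation enzymes, 0 to 1 for the other members, 6 to 10 for other oxidation enzymes, 2 to 4 for transporters, 1 to 4 for division genes, 2 to 4 for later ether lipid genes, 4 to 5 for PPAR and RXR regulators and 5 to 8 for mitochondrial oxidation. Lower calls ran from 0 to 1 for the other oxidation list and later ether lipid genes, 0 to 3 for transporters and 1 to 2 for mitochondrial oxidation. Deviations of same-numbered PDT and PBS libraries from their group means were nearly uncorrelated (r of -0.012, 0.014 and 0.005). With 3 libraries per group this cannot exclude that the numbers pair them. With the replicate block 12 members were higher and 2 lower. DESeq2, RLE scaling, limma-voom and leaving out mitochondrial, rRNA and histone genes changed no call of a member. Depth limits Ehhadh and Pxmp2.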
